A study of Homo sapiens with 2 samples.

Results

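The HOX genes of 4 clusters, their antisense transcripts and the TALE homeobox partners (MEIS, PBX and PKNOX genes) were followed in the leukaemia line labelled HAL-01, in a culture labelled AG and in a culture labelled Control. Members were chosen by symbol in GENCODE 29. They were every gene whose symbol begins with HOXA, HOXB, HOXC, HOXD, MEIS, PKNOX or PBX and a digit, plus HOTAIR, HOTTIP and HOTAIRM1. Of 71 such genes, 21 had a value in at least 1 library, out of 16145 gene IDs in all. Cells of the AG culture were kept with 0.8 mM 1,5-AG for 24 h; the name stands for 1,5-anhydroglucitol, a polyol that resembles glucose. What the Control culture received is not stated in the labels. There was 1 RNA-seq library per condition, so no difference has a replicate check, no test was possible and no p-value is given.

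HOX genes encode homeodomain transcription factors that set position along the body axis and, in blood, are active in stem and progenitor cells and fall silent as cells mature. Within a cluster they lie in numerical order, and genes of the same number in different clusters are paralogues. HOX proteins bind DNA together with TALE partners: PBX proteins bind beside them, and MEIS and PKNOX proteins bind PBX. High HOXA genes with MEIS1 are a known mark of leukaemias with KMT2A rearrangement, and HOXA and HOXB genes with MEIS1 are one of NPM1-mutated myeloid leukaemia. The HAL-01 line is known for another fusion, of TCF3 with HLF.

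The marker genes did not follow the label of pre-B acute lymphoblastic leukaemia. Of the 15 B precursor markers, 10 were listed, and values are given here for 2 of these, which are not the range of the list. CD79A, which carries signals from the antigen receptor of B cells, was at 0.351 FPKM in AG and 0.275 in Control. BLNK, an adaptor in the same signalling path, had 0.228 in AG and 0.229 in Control. FPKM are fragments scaled to gene length and to the total of the library. Of the 16 myeloid markers, 8 were listed. CTSG had 194 FPKM in AG and 743 in Control, and S100A9 had 131 in AG and 66.3 in Control. The markers of T and NK cells, of erythroid cells and megakaryocytes, and of stroma had 2 listed genes each, of which NKG7, at 10.3 FPKM in AG and 17.2 in Control, was the highest. HLF was listed in Control at 0.00909 FPKM and had no value in AG, and MNX1, a homeobox gene switched on by a translocation in some infant leukaemias, had 1.80 FPKM in AG and 1.53 in Control. MEIS1, KMT2A, TLX1, TLX3 and NKX2-1 were not analysed here in either library.

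The stretches of DNA before the RefSeq starts of HOXA11 and HOTTIP are shown first. The most abundant HOX gene and 2 non-coding RNAs of the same end of the HOXA cluster have RefSeq starts there. Each is the 250 bases before the RefSeq start in GRCh38.p14, read in the direction of the named gene: chr7:27185233-27185482 on the minus strand for HOXA11 and chr7:27200171-27200420 on the plus strand for HOTTIP. In the HOXA11 stretch, capitals mark the 175 bases between the RefSeq starts of HOXA11 and its antisense gene HOXA11-AS. From these RefSeq starts, HOXA11-AS is transcribed away from HOXA11 on the other strand. The GENCODE annotation used to choose members differs: there HOXA11-AS begins within HOXA11, and their exons share 717 bases. In the HOTTIP stretch, capitals mark CG dinucleotides. Of its bases, 171 also lie in the 250 bases before the RefSeq start of HOXA13, on the other strand. The RefSeq starts of HOTTIP and HOXA13 are 330 bases apart.
HOXA11: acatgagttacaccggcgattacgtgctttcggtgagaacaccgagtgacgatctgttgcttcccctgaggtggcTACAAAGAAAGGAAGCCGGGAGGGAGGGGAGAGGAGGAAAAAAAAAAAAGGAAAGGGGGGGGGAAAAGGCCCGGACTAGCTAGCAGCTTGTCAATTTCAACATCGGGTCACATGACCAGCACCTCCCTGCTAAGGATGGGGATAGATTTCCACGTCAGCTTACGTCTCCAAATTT
HOTTIP: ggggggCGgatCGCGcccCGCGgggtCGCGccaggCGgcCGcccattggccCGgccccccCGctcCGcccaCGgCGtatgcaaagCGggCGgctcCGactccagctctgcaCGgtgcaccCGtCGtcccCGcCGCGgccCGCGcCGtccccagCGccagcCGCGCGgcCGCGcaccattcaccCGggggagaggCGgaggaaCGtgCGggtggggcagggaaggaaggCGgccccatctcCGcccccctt

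The HOTTIP stretch held 38 CG dinucleotides and the HOXA11 stretch 11, against a median of 11 in 34943 such windows. RefSeq windows were matched for 11 of the 21 members, 19 windows in all. The motif TGATNNAT, a joint HOX and PBX site, was searched on both strands and was found in 6.49% of all windows. It was found in 1 window each of MEIS2, HOXA2 and HOXA-AS3. The MEIS motif TGACAG, found in 13.1% of all windows, was in those of HOXA2 and HOXA-AS3. Neither motif was in the stretches printed for HOXA11 and HOTTIP.

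The HOXA and HOXB clusters held the HOX genes with clear levels, and the HOXC and HOXD clusters were near 0 where listed. Of 39 HOX genes, 11 were listed in at least 1 library. The values of 10 are given here: HOXA2, HOXA3 and HOXA11, HOXB3, HOXB4, HOXB6, HOXB7 and HOXB13, HOXC6 and HOXD10. Of the 21 members, 13 were listed in both libraries, 3 in AG alone and 5 in Control alone, and the mean of both libraries was 1 FPKM or more for 6 of the 13. Over members listed in both libraries, FPKM summed to 3.33 in AG and 2.97 in Control for the HOXB cluster. HOXC6, the single HOXC member listed in both, had 0.0195 FPKM in AG and 0.0178 in Control, which is 1 fragment in each library.

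The remaining 28 HOX genes had no value here, and they included HOXA9, HOXA10 and HOXA13. The files list no zeros, and genes without a value are not always low: of genes at 5 FPKM or more in AG, 97.3% were also listed in Control. A gene without a value was therefore neither set to 0 nor called silent, and the data do not show whether the HOXA9 with MEIS1 pattern is present.

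**Figure D1:**
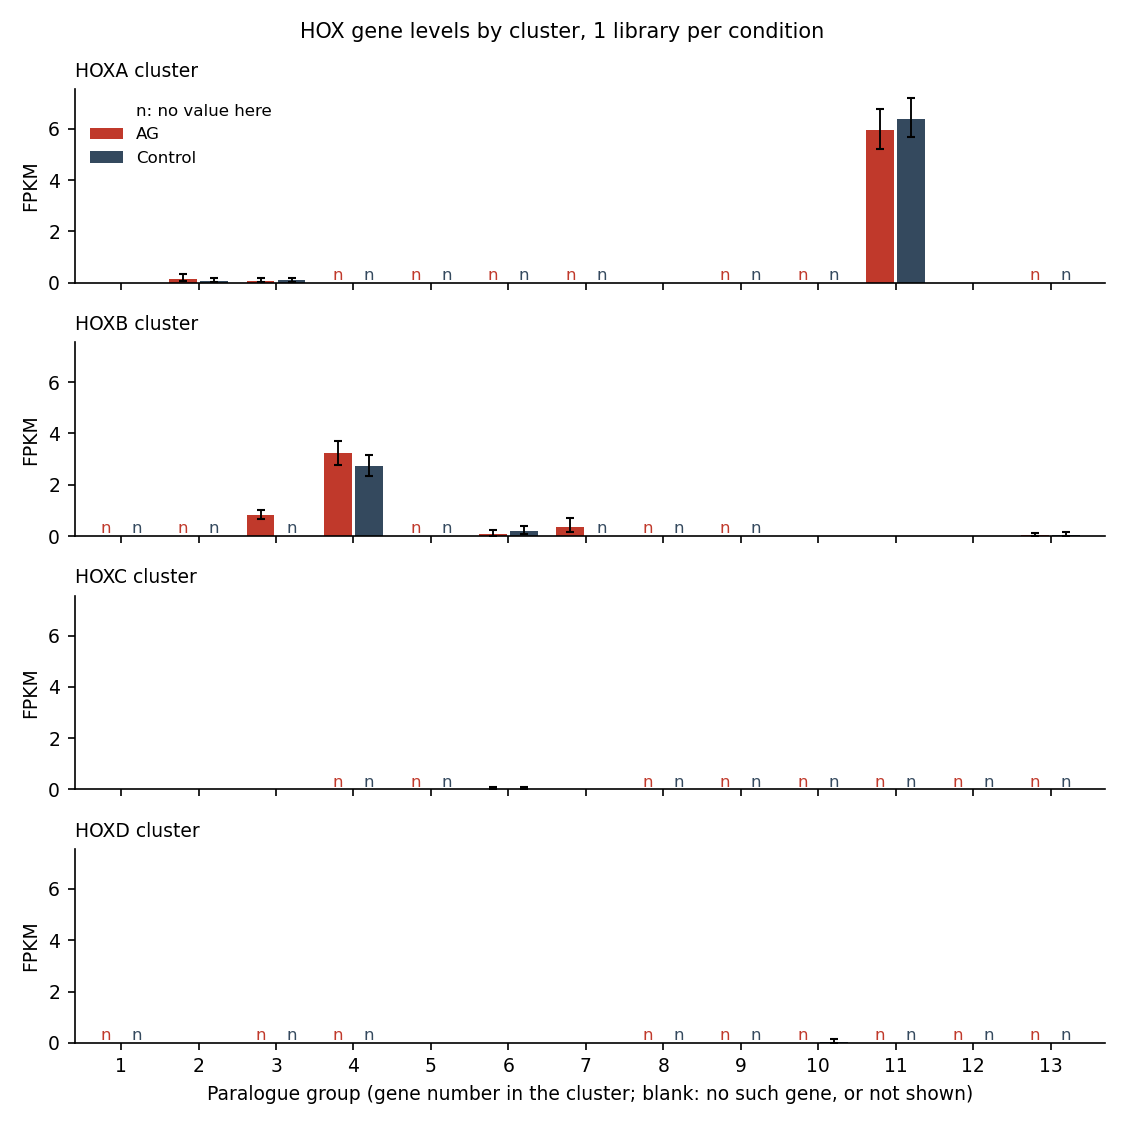
HOX gene levels in FPKM (vertical axis) by paralogue number (horizontal axis) in each cluster, AG in red left of Control in blue, with 95% counting intervals; the letter n marks a gene with no value. HOXA11 and HOXB4 stand above 1 FPKM in both libraries, and HOXC6 and HOXD10 are at or under 0.0247 FPKM where listed.

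HOXA11 (ENSG00000005073, chromosome 7, 27181510 to 27185223, minus strand, GRCh38) was the highest member. This posterior HOX gene, needed for limb, kidney and uterus development, had 5.95 FPKM in AG (95% counting interval 5.22 to 6.76, from 236 fragments) and 6.39 in Control (5.66 to 7.19, from 277 fragments). Its level was above that of 78.0% of listed genes in AG and 79.3% in Control. The ratio of AG to Control was 0.931 (95% counting interval 0.780 to 1.11). The counting intervals of the 2 libraries overlapped.

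HOXA11-AS (ENSG00000240990, chromosome 7, 27184507 to 27189298, plus strand), the antisense RNA of HOXA11, was the member that differed most between the libraries, of the 6 that averaged 1 FPKM or more. It had 0.753 FPKM in AG, from 35 fragments, and 1.36 in Control, from 69. The ratio was 0.554 (95% counting interval 0.358 to 0.844), an interval below 1, while the log2 ratio with 1 FPKM added to both values was -0.43, within 1.5-fold. With 0.1 FPKM added instead, the log2 ratio was -0.77, past 1.5-fold. Of all genes with a mean of 1 FPKM or more, 23% had an interval below 1, so a lower value of this kind in 1 of 6 members is not a result about the members. HOXA11-AS made up 12.9% of the fragments of the pair in AG (exact binomial interval 9.16 to 17.5) and 19.9% in Control (15.9 to 24.5), and these intervals overlapped. In the GENCODE annotation, the exons of the 2 genes share 717 bases, or 31.1% of HOXA11 exons. The strand setting of the counting is not given, so their reads cannot be told apart in the shared bases.

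HOTTIP (ENSG00000243766, chromosome 7, 27198575 to 27207259, plus strand), a non-coding RNA at the 5′ end of the cluster known to help keep posterior HOXA genes active, had 2.20 FPKM in AG and 2.25 in Control. The ratio was 0.976 (95% counting interval 0.787 to 1.21), so the 2 libraries differed by less than counting error. The same values also fit 83 fragments in AG and 93 in Control at a shorter length, which would widen the interval to between 0.717 and 1.33. HOXA13, which lies beside it and shares 86 exon bases with it on the other strand, had no value here.

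Toward the other end of the cluster, HOTAIRM1, a non-coding RNA of the myeloid lineage, had 0.453 FPKM in Control and no value in AG. That value fits 11 fragments at its GENCODE exon length but also 1 fragment of a shorter transcript, so it was not read as expression. HOXA2 and HOXA3, which pattern the hindbrain and neck, were far below HOXA11. HOXA2 had 0.144 FPKM in AG and 0.0528 in Control, from 5 and 2 fragments. HOXA3 had 0.0781 FPKM in AG and 0.0858 in Control, and the antisense gene HOXA-AS3 had 0.0338 in AG and 0.0929 in Control. The counting intervals of these 3 ratios all included 1, so no difference was detectable at this depth.

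HOXB4 (ENSG00000182742, chromosome 17, 48575513 to 48580111, minus strand), a regulator of blood stem cell self-renewal, led the HOXB cluster. It had 3.23 FPKM in AG and 2.74 in Control, a ratio of 1.18 (95% counting interval 0.957 to 1.45, from 192 and 178 fragments). The same values also fit 96 and 89 fragments of a shorter gene, which would widen the interval to between 0.874 and 1.59. HOXB3, also active in stem cells, had 0.816 FPKM in AG, HOXB-AS2 had 0.637 and HOXB7 had 0.354, and none of the 3 had a value in Control. Among genes between 0.5 and 1 FPKM in AG, the range of HOXB3 and HOXB-AS2, 78.2% were listed in Control, and between 0.1 and 0.5 FPKM, the range of HOXB7, 67.3% were. Other genes at these levels therefore also lacked a Control value. The single value of HOXB7 fits 8 fragments or, at a shorter length, 1, and that of HOXB3 fits 90 or 2. HOXB3 and HOXB4 share 159 exon bases on the same strand, where their reads cannot be told apart. HOXB6 had 0.0775 FPKM in AG and 0.189 in Control, from 3 and 8 fragments, and HOXB13 had 0.0221 in AG and 0.0405 in Control, from 1 and 2 fragments.

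The HOXC and HOXD members rested on single fragments. HOTAIR, the antisense RNA of the HOXC cluster, and HOXC-AS2 had 0.0237 and 0.0278 FPKM in Control, and HOXD10 had 0.0247, each from 1 fragment. None of these 3 had a value in AG. A level from 1 fragment was not read as expression.

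**Figure D2:**
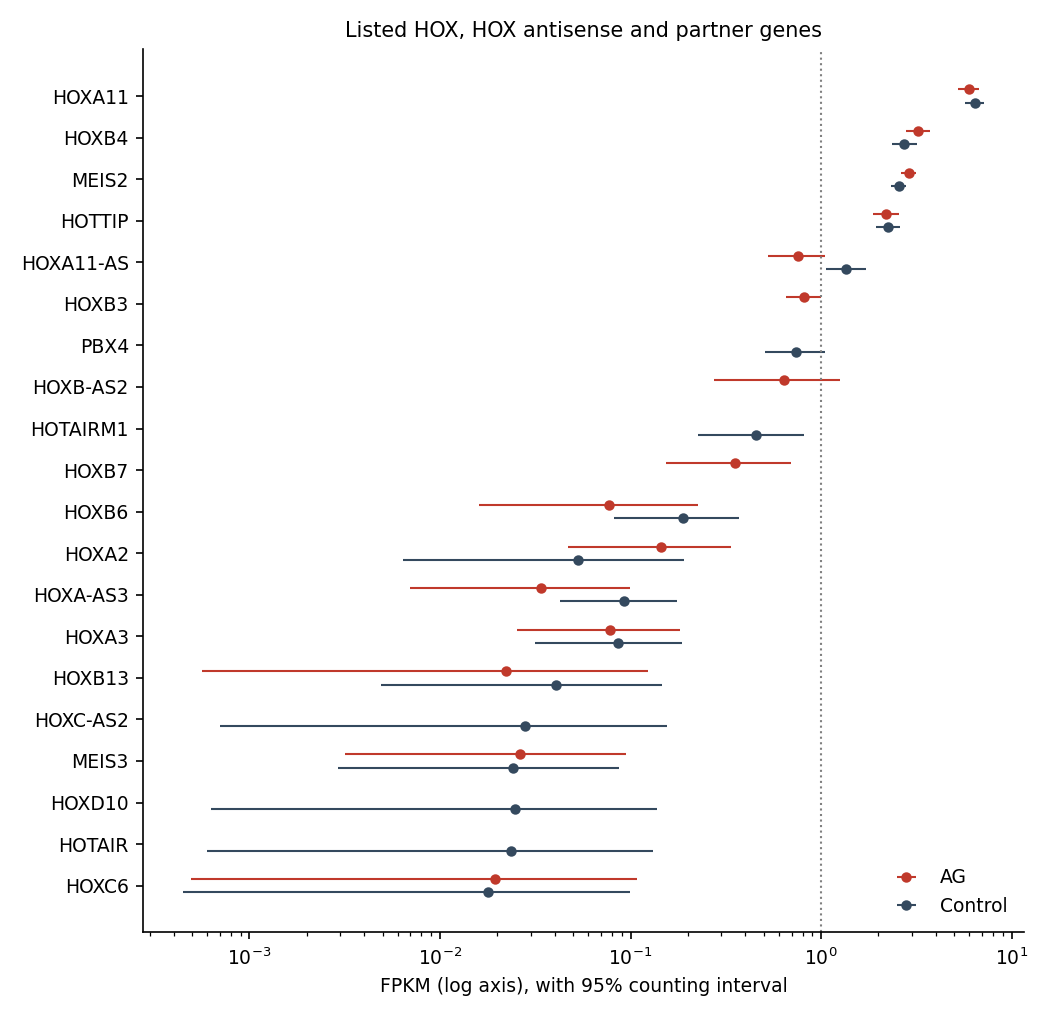
Levels of 20 of the listed members in FPKM on a log axis, AG (red) above Control (blue) in each row, with 95% counting intervals and a dotted line at 1 FPKM. HOXA11, HOXB4, MEIS2 and HOTTIP lie above 1 FPKM in both libraries, and the lowest members span more than an order of magnitude of counting error.

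MEIS2 (ENSG00000134138, chromosome 15, 36889204 to 37101299, minus strand) was the TALE partner with the highest level. It had 2.89 FPKM in AG and 2.56 in Control, from 464 and 449 fragments, the most of any member. The ratio was 1.13 (95% counting interval 0.990 to 1.29). MEIS3, its relative, had 0.0263 FPKM in AG and 0.0240 in Control. PBX4, a PBX partner, had 0.740 FPKM in Control and no value in AG. That single value of PBX4 fits 32 fragments or, at a shorter length, 4. No PKNOX gene and no other PBX or MEIS gene of the 9 protein-coding partners had a value here.

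A ratio could be formed for 13 of the 21 members. None of the 6 members that averaged 1 FPKM or more was 1.5-fold higher or lower on the log2(FPKM + 1) scale, where 6.93% of 5528 genes were; with 0.1 FPKM added, HOXA11-AS was lower by that rule. Their median log2 ratio was -0.05, and that of all 5528 genes was -0.03. The counting interval of the ratio excluded 1 for 1 of the 6, HOXA11-AS, against 39.8% of genes with recovered fragments, and wide intervals at these low levels limit that comparison. All 7 members under 1 FPKM had intervals that included 1, with ratios between 0.364 for HOXA-AS3 and 2.73 for HOXA2. Of all genes listed in both libraries, of any level, 24.9% had intervals that excluded 1. That share includes genes at far higher levels, with narrower intervals, so it is not a like measure for these 7. In a bulk library, fewer cells that express a gene and less RNA per cell cannot be told apart.

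**Figure D3:**
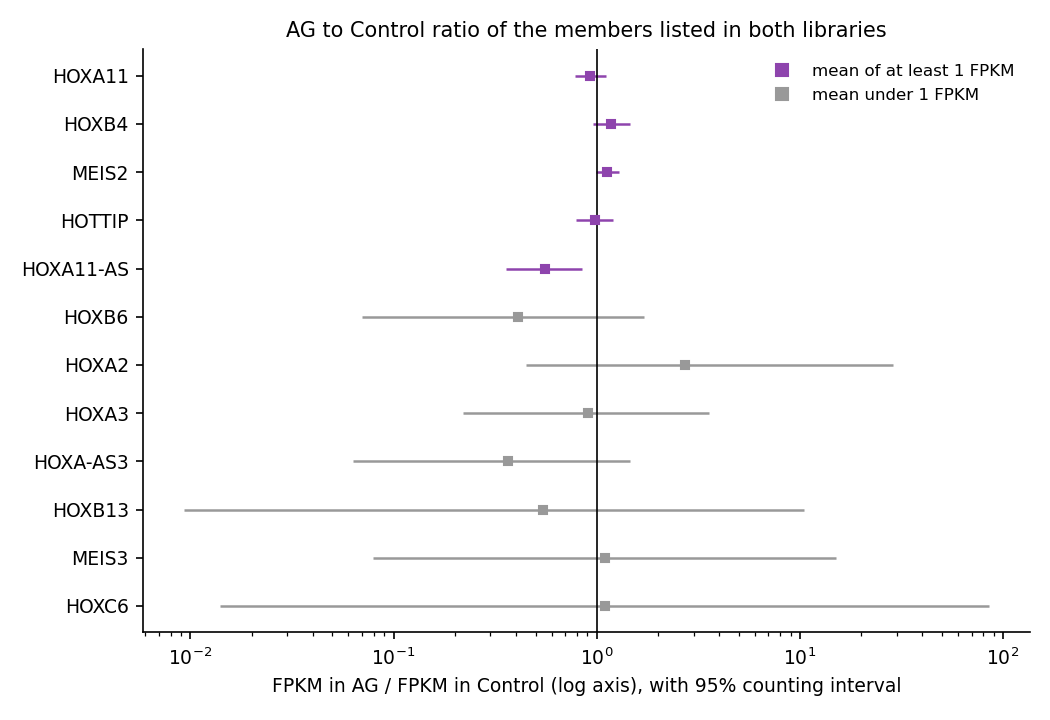
Ratio of FPKM in AG to FPKM in Control on a log axis for 12 of the members listed in both libraries, with 95% counting intervals and a line at 1. HOXA11-AS, at 0.554, is the member whose interval lies below 1.

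On each side of the HOXA and HOXC clusters, the nearest protein-coding gene listed in both libraries was higher than any listed member of that cluster. This held in AG and in Control. For the HOXD cluster it held in Control, and in AG no HOXD member had a value. For the HOXB cluster it held in both libraries for CBX1 alone. Genes not listed in both libraries were passed over and may lie nearer. The nearest protein-coding gene listed in both libraries on the anterior side of the HOXA cluster was SKAP2, an adaptor of immune receptor signalling 97.8 kb away, with 18.3 FPKM in AG and 16.1 in Control. On the other side, HIBADH, an enzyme of valine breakdown 318 kb away, had 13.6 FPKM in AG and 15.8 in Control. Beside the HOXC cluster, SMUG1, a DNA repair enzyme 65.2 kb away, had 3.16 FPKM in AG and 3.50 in Control. ATF7, 309 kb away on the other side, had 3.41 FPKM in AG and 3.99 in Control. The highest HOXC member had 0.0278 FPKM in Control. For the HOXB cluster, CBX1, a heterochromatin protein 427 kb away, had 35.3 FPKM in AG and 44.7 in Control. SNF8, a subunit of an endosomal sorting complex 200 kb away on the other side, had 3.06 FPKM in AG and 3.18 in Control. The SNF8 level was below HOXB4 in AG and above it in Control. For the HOXD cluster, the nearest genes listed in both libraries were far off. ATP5MC3 of the mitochondrial ATP synthase was 908 kb away and the oxidative stress factor NFE2L2 1037 kb away. These genes had 56.5 and 12.2 FPKM in AG and 54.0 and 15.8 in Control.

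Among chromatin and retinoid regulators of HOX genes that could be compared, most were within 1.5-fold between AG and Control. The retinoid receptor RARA was not. Of 63 genes on this list, which includes the KMT2A and Polycomb complexes, 15 had values in both libraries that averaged 1 FPKM or more. Of these 1 was at least 1.5-fold higher, 0 were lower and 14 were within 1.5-fold, with 12 of the 15 (80%) below 0 and a median log2 ratio of -0.09. Over all 5528 genes 3.6% were higher and 3.33% lower by that rule, 56.8% were below 0 and the median was -0.03. The counting interval of the ratio lay below 1 for 9 of the 15 regulators, above 1 for 2 and included 1 for 4. Of all genes with a mean of 1 FPKM or more, 23% had an interval below 1. The difference from all genes was not tested. RARA, the retinoic acid receptor through which anterior HOX genes are induced, had 9.79 FPKM in AG and 4.71 in Control, a ratio of 2.08 (95% counting interval 1.83 to 2.37). KDM6B, a demethylase that removes the Polycomb mark, had 1.99 FPKM in AG and 1.73 in Control. CBX2, a Polycomb subunit, was at the low end, with 4.64 FPKM in AG and 6.72 in Control, a ratio of 0.690 (0.607 to 0.785). PAF1, of the elongation complex that works with KMT2A, had 21.0 in AG and 26.7 in Control. The KMT2A partner PSIP1 and the H3K79 methyltransferase DOT1L, chosen after their values were seen, had 17.0 and 15.1 FPKM in AG and 21.4 and 16.1 in Control. KMT2A, MEN1, EZH2 and 39 others of the list were not analysed here.

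Genes known as targets of HOXA9 and MEIS1, or co-expressed with them in leukaemia, were also mostly within 1.5-fold where they could be compared. Of 32, 15 had values in both libraries that averaged 1 FPKM or more. Of these 0 were 1.5-fold higher, 2 were lower and 13 were within 1.5-fold, with 11 of the 15 (73.3%) below 0 and a median log2 ratio of -0.23. These shares stand beside the 3.6% higher, 3.33% lower and 56.8% below 0 of all 5528 genes. The counting interval of the ratio lay below 1 for 10 of the 15, above 1 for 2 and included 1 for 3. Beside this, 23% of all genes with a mean of 1 FPKM or more had an interval below 1. The differences from all genes were not tested. The lower genes were BCL2, an apoptosis inhibitor, at 11.9 FPKM in AG and 21.9 in Control, and CDK6, a cell cycle kinase, at 31.7 in AG and 50.1 in Control, a ratio of 0.633 (95% counting interval 0.612 to 0.653). MYB, a progenitor transcription factor chosen after its value was seen, had 69.3 FPKM in AG and 99.2 in Control, a ratio of 0.699 (0.675 to 0.722). ID2, an inhibitor of helix-loop-helix factors, had 23.6 in AG and 18.3 in Control, and PTPN11, the phosphatase SHP2, had 51.5 in AG and 44.9 in Control. Over the 7 myeloid markers listed in both, FPKM summed to 497 in AG and 952 in Control. That direction rests on CTSG: without it the other 6 summed to 303 in AG and 209 in Control. Of the 7, 2 were 1.5-fold higher (S100A9 and ITGAM) and 2 lower (CTSG and MPO), with 4 above 0 and a median log2 ratio of 0.28. No myeloid or B precursor marker is a member, and the part of the marker difference in these values was not tested.

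**Figure D4:**
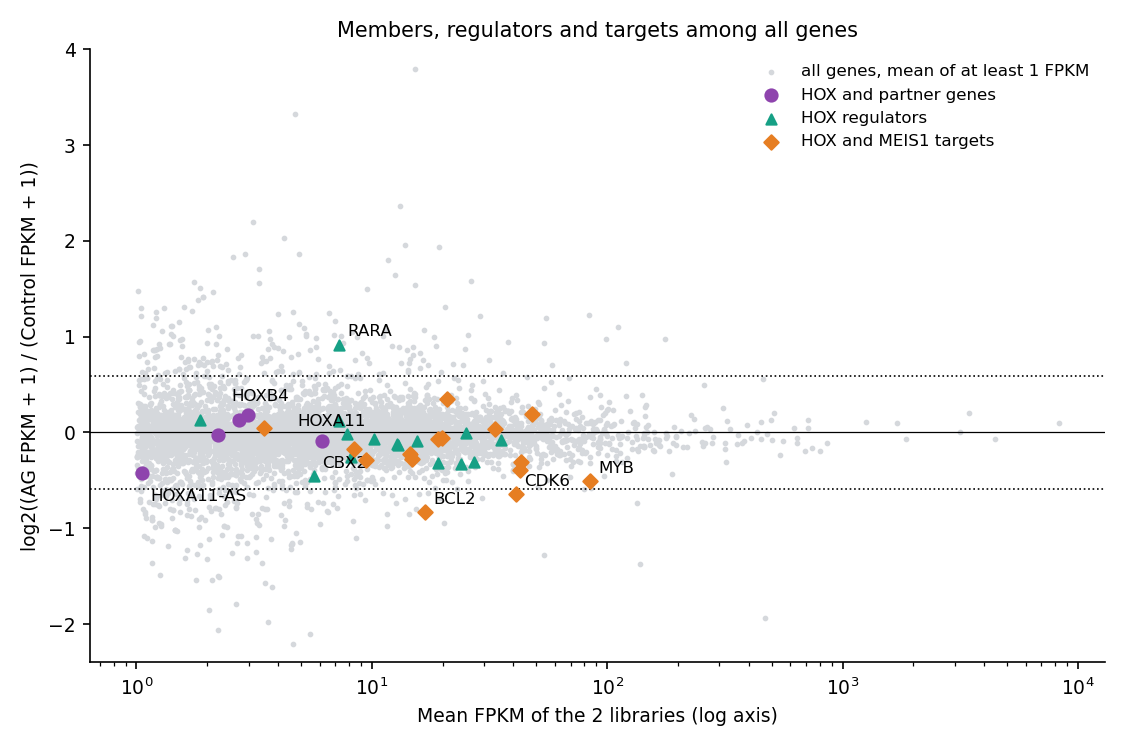
Log2 ratio of AG to Control with 1 FPKM added (vertical axis) against mean FPKM on a log axis for all 5528 genes (grey), HOX and partner genes (purple), HOX regulators (green) and HOX and MEIS1 targets (orange), with dotted lines at 1.5-fold. The 5 purple members shown lie between the dotted lines, RARA lies above them, and BCL2 and CDK6 lie below.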

How the data were processed

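Per the labels, the libraries came from a stranded mRNA kit, after Trizol extraction. The deposited values are FPKM per Ensembl ID, made by the authors. Per the submitters' processing notes, the build was hg38 and the tools were HISAT2, HTSeq, Cufflinks and Trimmomatic, with no version given. Annotation, strand setting and filters are not stated there, and 15 of the 21 members share exon bases with another gene in GENCODE 29, so their values are uncertain there.

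Depth was recovered from the FPKM steps. For genes with a single transcript, FPKM times exon length gave whole fragments, within 0.01, in 88.0% of 5251 genes of AG and 88.4% of 5309 of Control. The totals were 14857372 fragments in AG and 16240451 in Control. A gene's fragment numbers were those whole in each library where it is listed at 1 common length, taking the length nearest to its GENCODE exons, and pairs were found for 99.5% of 5528 expressed genes. That length differed from GENCODE 29 for some genes, such as HOXA11 (2669 against 2307 bases). Ratios carry 95% Clopper-Pearson intervals and levels exact Poisson intervals. Both cover counting error only. Changes are log2((AG + 1)/(Control + 1)), which understates low genes, with 1.5-fold as the threshold. Expressed genes had values in both libraries that averaged 1 FPKM or more. IDs were matched to GENCODE 29 for 97.1% of 16145.

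No count model was fitted, and 1 library per group allowed no test. Functions were tested on simulated data. The alternatives were other pseudocounts, scalings, filters and a 2-fold threshold. Every listed member is named except 1, whose values are not reported here but enter the counts and medians. Of the regulator and target lists the 2 highest and 2 lowest by log2 ratio and any gene past 1.5-fold are named, and of marker lists abundant genes. Members and lists were chosen with earlier results of these data known. Figures were drawn with matplotlib 3.10.9, and values were computed in Python 3.11.15 with pandas 2.3.3, scipy 1.17.1 and numpy 2.4.6.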

Additional observations from a re-analysis of the deposited data

How the results depend on the processing

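With a pseudocount of 0.1 FPKM, 1 of the 6 members with a mean of at least 1 FPKM was past 1.5-fold, HOXA11-AS at a log2 ratio of -0.77, where the count was 0 with 1 FPKM. With a 2-fold threshold the regulator list had 0 genes past it and the target list 0, against 1 and 2 at 1.5-fold. The other alternatives (a pseudocount of 5 FPKM, scaling by the median of ratios or to a common sum, no filter, a mean of at least 5 FPKM) left these 3 counts as given. The median log2 ratio of the members ran from -0.09, where a mean of at least 5 FPKM left HOXA11 alone, to -0.02. Log2 ratios of the 13 members moved by less than their counting error in all 52 recalculations. For the myeloid markers, the log2 ratio of summed FPKM was -0.94, and without CTSG, an alternative chosen after seeing the data, it was reversed to 0.54. No paired analysis was possible because there was 1 library per condition. Depth limits the members under 1 FPKM, of which none had more than 9 fragments in a library among those listed in both.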
